A study of Sus scrofa with 6 samples.

Results

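The genes described here act in homologous recombination and in the other routes by which cells mend DNA. They were fixed as a list of 46 symbols, and 40 of the 46 were found by gene name among the 18007 genes of the expression table. Another 4 (RAD50, RBBP8, FANCE and CHEK1) are listed by identifier only, were named through an Ensembl gene table and are kept outside the counts. XRCC3 and XRCC4 were not analysed here.

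The study reprogrammed porcine embryonic fibroblasts (PEFs) into porcine induced pluripotent stem cells (piPSCs) and compared their RNA. PEF5, PEF7 and PEF8 came from ear tips of embryos at day 90 after the mating of a Longwhite (Large White) boar with a Meishan sow, and carried no added factors. piPSC5, piPSC7 and piPSC8 were made from these lines with lentiviral Oct4, Sox2, Klf4 and c-Myc under a doxycycline-inducible promoter, and were kept with doxycycline on mouse feeder cells. They grew from picked colonies, and each line was read as 1 poly-A library, so a group is 3 lines and no line has a replicate.

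A cell that replicates its DNA meets broken forks, mispaired bases and crosslinked strands. Homologous recombination copies the lost sequence from the sister chromatid, which is present only after replication, so its genes are in general expressed most in dividing cells. Non-homologous end joining seals broken ends at any stage of the cell cycle, base excision repair removes single damaged bases, and nucleotide excision repair cuts out bulky damage such as that made by ultraviolet light.

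The libraries held between 11010629 and 17836510 fragments, recovered from the deposited FPKM values (fragments per kilobase of gene, scaled to the library's total). Of 10 fibroblast markers, summed levels were 5957 to 8601 FPKM in PEFs and 234 to 428 in piPSCs. Of the 8 pluripotency markers in the table, summed levels were 0.144 to 0.202 FPKM in PEFs and 2.96 to 9.16 in piPSCs, carried by SOX2 and LIN28B, while NANOG, SALL4, ESRRB, ZFP42, EPCAM and CDH1 were at or near 0 in the piPSC libraries. Summed markers of endothelial and cartilage cells reached at most 2.57 FPKM in a library, and those of epidermal cells ran from 3.04 to 9.09. Of the other types, the melanocyte gene MLANA had 7.84 to 25.6 FPKM in PEFs and 0 in piPSCs, the monocyte gene CD14 had 9.20 to 21.9 and 0.110 to 0.239, and the muscle gene DES had 14.2 in piPSC7. The lines are described as male, yet the Y-linked gene DDX3Y had 3439 fragments in PEF8 and 4207 in piPSC8, and 0 in the libraries of lines 5 and 7.

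In the reprogrammed cells, 5 of 9 tested genes of strand exchange, 3 of 4 of end resection and junction processing, 3 of 7 of crosslink repair and 4 of 4 of base excision repair were called higher, while the Ku subunits of end joining and the 4 listed genes of nucleotide excision repair did not pass the test. A gene was called at an adjusted p under 0.05 in limma, fitted over 12428 genes on log2(FPKM + 1), and at least a 2-fold change. Of the 39 genes of the list that were tested, 19 were called higher in piPSCs (48.7%, against 20.2% of all tested genes) and 1, LIG4, was called lower (2.56%, against 16.7%). An adjusted p under 0.05 was reached by 26 (66.7%, against 51.7% of all tested genes). That number was 16 without piPSC5 and 17 without PEF7. Every piPSC library lay above every PEF library in 32 genes (82.1%, against 37.3%) and below in 2, LIG4 and XPA (5.13%, against 26.8%).

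The median log2 fold change of the 39 genes was 0.96, and that of all tested genes was 0.205. Rescaling the libraries by their median ratio moved the latter to -0.007 and rescaling to equal sums to -0.06, and all genes then split into 1879 higher and 2511 lower, or 1986 and 2815, in place of 2505 and 2070. With 1 added before the log, changes of genes that are low in PEFs are understated. With voom on recovered fragments the log2 fold change was 5.17 for EXO1, 4.22 for RAD51C, 3.99 for FANCI, 3.63 for BLM, 3.57 for BARD1, 2.24 for CHEK2 and 1.95 for XRCC2, over 1.5 times those on log2(FPKM + 1). Of the genes not called on that scale, BRCA2 (2.17), FANCC (2.33), FANCL (1.81) and RAD52 (1.05) were called with voom, also at over 1.5 times. ATR was called with voom too, at 1.16 in place of 0.89. NBN, PMS2 and TP53BP1 moved less, from 0.879, 0.686 and 0.673 to 0.99, 0.815 and 0.757, and were not called. In the repair list, 15 genes and 16 genes were called higher under these rescalings, and 1 was called lower under each. Under each of 13 alternative settings, 13 genes were called higher: ATM, BLM, CHEK2, EXO1, FANCA, FANCD2, FANCI, MSH6, PARP1, PRKDC, RAD51C, UNG and XRCC1.

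**Figure D1:**
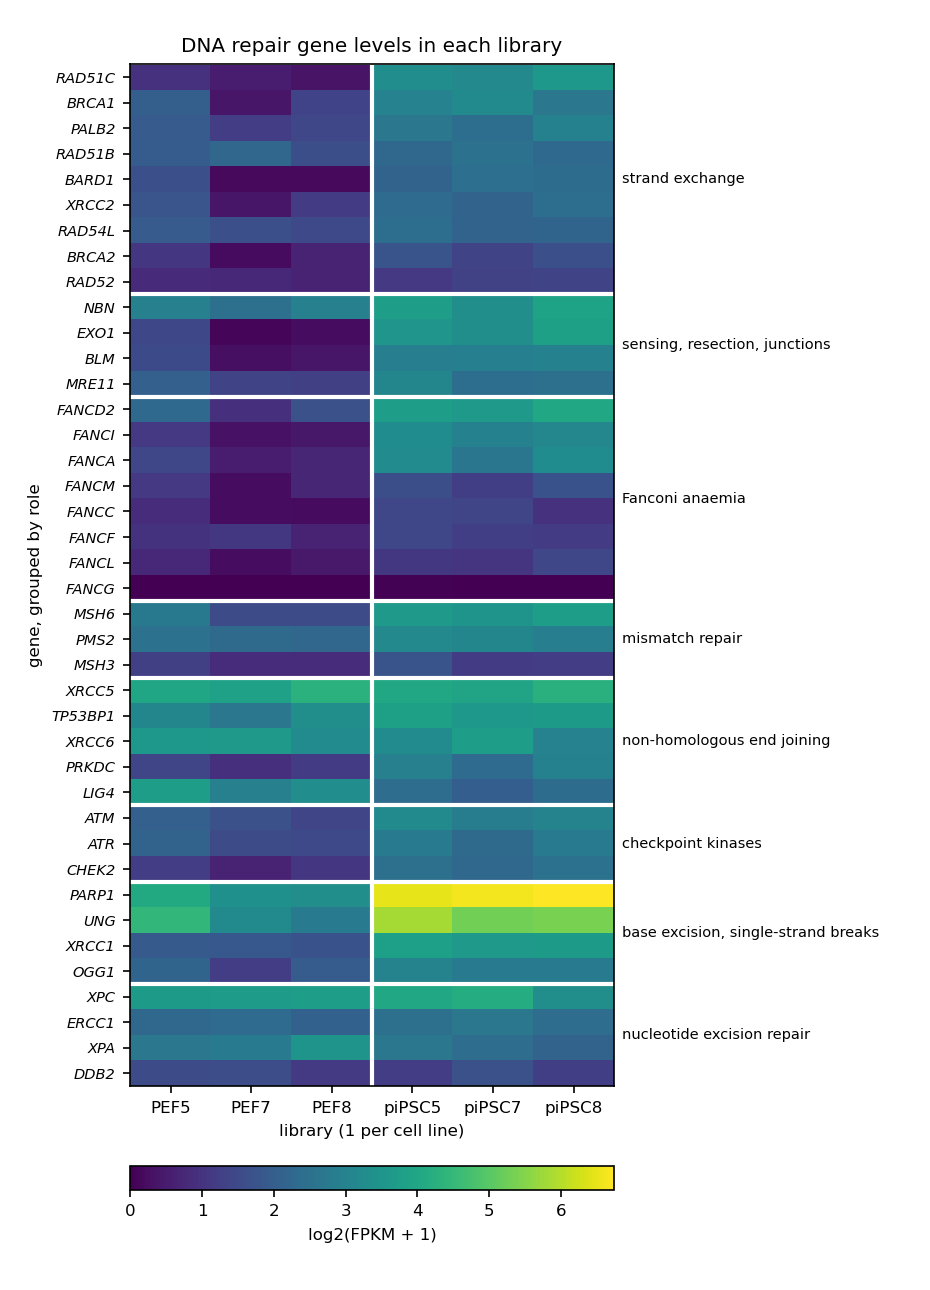
Level of the 40 genes found by name, as log2(FPKM + 1) on the colour scale, in each of the 6 libraries (columns), with genes in rows grouped by role and ordered within a role by their mean in piPSCs. PARP1 and UNG are the brightest rows in the piPSC columns, the rows of nucleotide excision repair look alike in both groups, and PEF5 is brighter than PEF7 and PEF8 in many rows.

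Cell division genes moved with the repair genes. Of 14 tested genes of cycling cells (such as MKI67 and TOP2A), 11 were called higher in piPSCs (78.6%, against 20.2% of all tested genes). Their summed level in lines 5, 7 and 8 was 172, 31.7 and 55.4 FPKM before and 375, 386 and 426 after reprogramming, and their median per library ran from 1.22 to 3.13 as log2(FPKM + 1) in PEFs and from 4.15 to 4.32 in piPSCs. In bulk samples, fewer cycling cells and less RNA per cell cannot be told apart, and the part of cell division in the repair gene values was not tested. RNA of the mouse feeder cells is not separated in these values.

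The first group holds the proteins that prepare single-stranded DNA at the break to invade the sister chromatid. Of its 9 tested genes, 5 were called higher and 0 lower (against 20.2% and 16.7% of all tested genes). Their median log2 fold change was 1.16, with a range of 0.42 to 2.76 over the 9 genes. RAD51C (ENSSSCG00000023955, chromosome 12 from 34975979 to 35019019, plus strand), which takes part in strand invasion and in the resolution of joined molecules, had 0.948, 0.42 and 0.274 FPKM in PEF5, PEF7 and PEF8 and 8.93, 8.08 and 11 in piPSC5, piPSC7 and piPSC8. The 3 fibroblast libraries were all under 1 FPKM and the 3 piPSC libraries all above 8. RAD51C rose by 2.76 on the log2 scale (adjusted p = 0.000444 in limma, SE 0.24).

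BRCA1 (ENSSSCG00000022101, chromosome 12 from 19787858 to 19853505, plus strand) and BARD1 (ENSSSCG00000016170, chromosome 15 from 117049487 to 117135873, minus strand) form a ubiquitin ligase that favours recombination over end joining. BRCA1 had 3.12, 0.324 and 1.56 FPKM in the PEF libraries and 6.89, 8.3 and 5.39 in the piPSC libraries, in the order of lines 5, 7 and 8. The piPSC libraries all lay above the fibroblasts, of which PEF7 was the lowest and PEF5 the highest, and the difference was 1.69 on the log2 scale (adjusted p = 0.0161 in limma, SE 0.42). The call of BRCA1 was lost without piPSC5, where the adjusted p was 0.0519. BARD1 had 2.12, 0.122 and 0.121 FPKM in PEFs and 3.46, 4.53 and 4.17 in piPSCs, so that PEF5 held most of the fibroblast signal. BARD1 rose by 1.67 on the log2 scale (adjusted p = 0.0176 in limma, SE 0.43), with adjusted p values of 0.0586 without PEF7 and 0.055 without PEF8.

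XRCC2 (ENSSSCG00000032315, chromosome 18 from 4808467 to 4835802, plus strand), which takes part in strand invasion, had 2.44, 0.315 and 1.3 FPKM in PEFs and 4.07, 3.38 and 4.43 in piPSCs. The groups did not overlap, and the value was 1.18 on the log2 scale (adjusted p = 0.0347 in limma, SE 0.37). The call was kept under 4 of the 13 alternatives. It was lost under both rescalings, with a pseudocount of 0.1, with no filter and in the fits without PEF7, PEF8, piPSC5, piPSC7 or piPSC8, where adjusted p values ran from 0.0568 to 0.0921. PALB2, which ties BRCA1 to BRCA2, averaged 1.94 ± 0.786 FPKM (SD, n = 3) in the fibroblasts against 5.51 ± 1.19 in piPSCs, and rose by 1.16 on the log2 scale (adjusted p = 0.0117 in limma, SE 0.27), with 0.96 after rescaling to the median ratio. BRCA2, which acts at the break after resection, was higher by 0.96 on the log2 scale (adjusted p = 0.0313 in limma, SE 0.29), just under the 2-fold line. It was called with a pseudocount of 0.1 (1.87, adjusted p = 0.0482) and with voom (2.17, adjusted p = 0.0297). RAD54L, RAD52 and RAD51B had log2 fold changes of 0.57, 0.53 and 0.42 and did not pass the test, with adjusted p values from 0.0642 to 0.162. In all 3 of these genes every piPSC library lay above every fibroblast library, which was also so in 37.3% of all tested genes.

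Promoters were searched for a motif bound by E2F factors, which drive genes at the start of replication (TTTGGCGC or TTTCGCGC), and for the cell cycle homology region motif TTTGAA, known as CHR, which marks genes of late cell cycle. The window ran from 250 bases before to 50 after the RefSeq gene start on Sscrofa11.1, on both strands, and the sequences are those of the RefSeq genome. The E2F letters were in 3 of the 40 promoters (7.5%), those of BRCA2, BARD1 and MSH3, against 1.16% of 19556 promoters of all protein-coding genes and 1.62% of those of tested genes. CHR letters were in 4 of the 40 (10.0%), against 14% of all promoters and 11.4% of those of tested genes. Among genes called higher the E2F letters were in BARD1 and the CHR letters in XRCC1, after its start. The cycling genes held E2F letters in 14.3% and CHR letters in 50% of 14 promoters. A match describes letters only, and no match says only that these letters are not in this window.

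BARD1 is shown because it is the gene called higher that held E2F letters before its start. BRCA2 was added after the sequences were seen, because it held the same 8 letters at nearly the same distance. The stretches of 30 bases lie at chr15:117135897-117135926 on the minus strand for BARD1 and at chr11:8805915-8805944 on the plus strand for BRCA2, are written 5′ to 3′ along the gene, and carry the motif in capitals.
BARD1: gcgccggcactTTTGGCGCgtttcggccct
BRCA2: gagagccggctTTTGGCGCgagcgtctgaa
The motif began 26 bases before the start of BARD1 and 24 before that of BRCA2, both in the reading direction of the gene. In the expression table both genes start further downstream than in RefSeq.

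The second group senses broken ends, trims them to single strands and resolves the joined molecules. All 4 of its genes found by name had an adjusted p under 0.05 (against 51.7% of all tested genes), and 3 were called higher (against 20.2%). EXO1 (ENSSSCG00000010865, chromosome 10 from 15317574 to 15359074, plus strand), the nuclease of long-range resection, had 1.76, 0.0751 and 0.166 FPKM in PEFs and 10.4, 9.06 and 13.3 in piPSCs. These values rest on 125, 5 and 10 fragments before reprogramming and on 625, 429 and 583 after it, so that PEF7 and PEF8 hardly held the transcript while every piPSC library did. EXO1 rose by 2.96 on the log2 scale (adjusted p = 0.00162 in limma, SE 0.40), which understates the 16.4-fold ratio of the mean FPKM values, because 1 was added before the log.

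BLM (ENSSSCG00000001816, chromosome 7 from 53317540 to 53416519, plus strand), the helicase that dissolves recombination intermediates, had 1.84, 0.209 and 0.339 FPKM in PEFs and 6.34, 6.51 and 6.76 in piPSCs. The 3 piPSC libraries were nearly equal and all stood above PEF5, the highest fibroblast line. The increase was 2.18 on the log2 scale (adjusted p = 0.0031 in limma, SE 0.35). MRE11 (ENSSSCG00000014955, chromosome 9 from 26572354 to 26634655, minus strand), the nuclease that starts resection, had 3.17, 1.6 and 1.42 FPKM in PEFs and 7.52, 4.41 and 4.65 in piPSCs. PEF5 and piPSC5 were the highest of their groups, and the difference was 1.10 on the log2 scale (adjusted p = 0.0223 in limma, SE 0.30), which was 0.90 after rescaling to the median ratio. Without PEF7, PEF8 or piPSC5 the adjusted p of MRE11 was 0.0728, 0.0703 and 0.0749.

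NBN, the partner of MRE11, was higher by 0.88 on the log2 scale (adjusted p = 0.0192 in limma, SE 0.23). Its adjusted p was 0.0546 by median ratio, 0.083 by equal sums and 0.0536 to 0.0681 without PEF7, piPSC5 or piPSC8. NBN was called without piPSC7, at 1.05. Of the 2 genes of this group known by identifier only, RBBP8, which activates MRE11, was higher by 1.16 on the log2 scale (adjusted p = 0.00473 in limma, SE 0.21). The identifier given for RAD50 had a log2 fold change of -0.33 (adjusted p in limma = 0.167), and its gene model is longer than RAD50 and overlaps other genes, so its value may not be that of RAD50 alone.

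**Figure D2:**
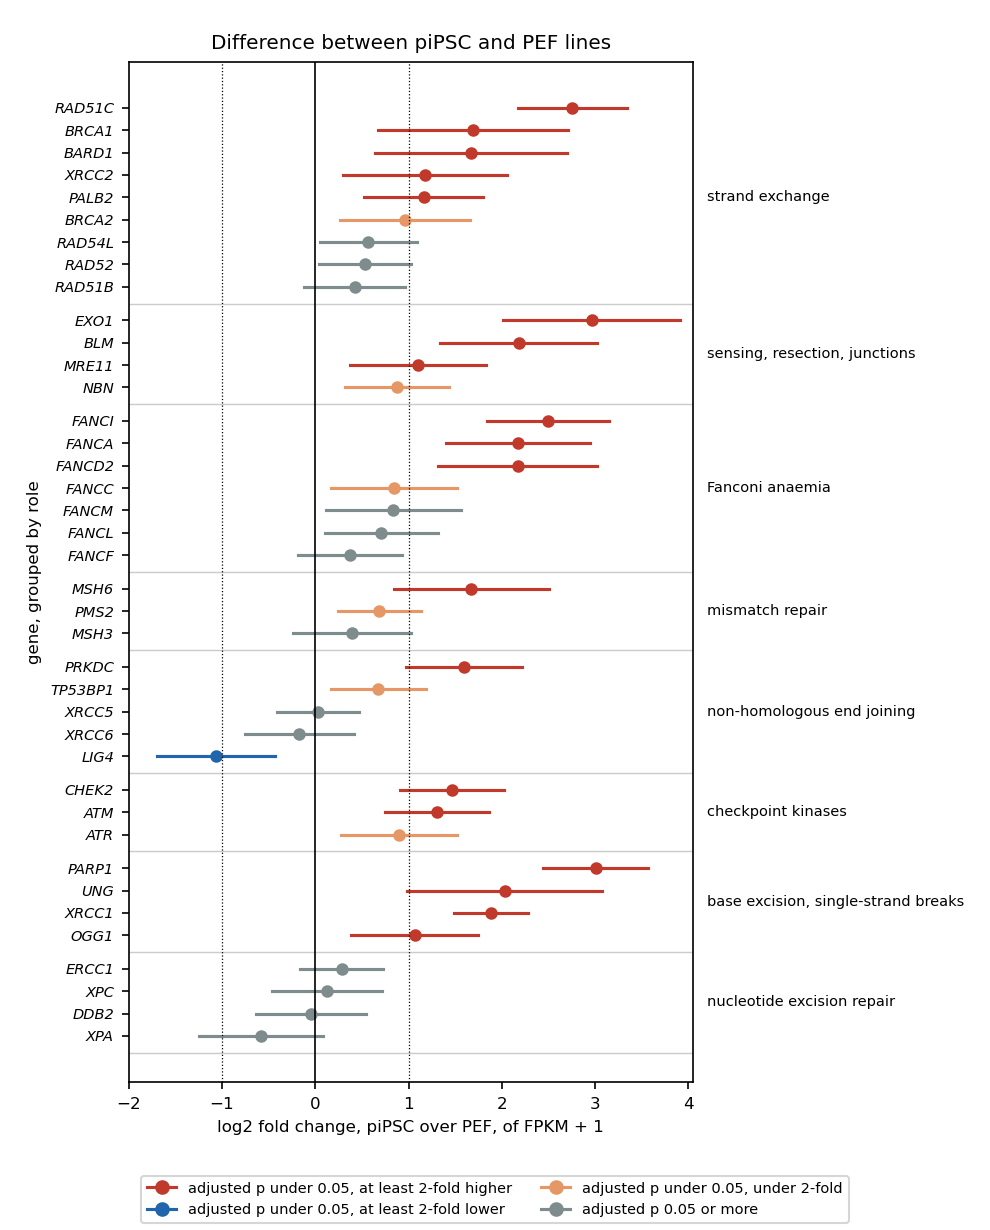
Log2 fold change of FPKM + 1 between the 3 piPSC and the 3 PEF lines (x axis) for the 39 tested genes in rows, grouped by role, with 95% confidence intervals from limma as bars. Red points were called higher and the blue point, LIG4, lower, orange points passed the adjusted p but not 2-fold, and grey points did not pass. The 4 genes of base excision repair are all red and the 4 of nucleotide excision repair all grey. Of all tested genes, 20.2% were called higher and 16.7% lower.

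The Fanconi anaemia proteins unhook crosslinked strands and pass the break on to recombination. A core complex, here FANCA, FANCC, FANCF, FANCG, FANCL and FANCM, attaches ubiquitin to the pair FANCD2 and FANCI. Of 7 tested genes, 3 were called higher (against 20.2% of all tested genes), and these were both partners of the pair and FANCA. FANCI (ENSSSCG00000001837, chromosome 7 from 54810982 to 54893569, plus strand) had 1.18, 0.257 and 0.346 FPKM in PEFs and 8.72, 6.75 and 7.76 in piPSCs, with every piPSC library far above PEF5, the highest fibroblast library. FANCI rose by 2.49 on the log2 scale (adjusted p = 0.000849 in limma, SE 0.27).

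FANCD2 (ENSSSCG00000011563, chromosome 13 from 66241664 to 66310433, plus strand) had 3.95, 0.924 and 2.18 FPKM in PEFs and 12.6, 11.4 and 15.3 in piPSCs, and rose by 2.17 on the log2 scale (adjusted p = 0.00331 in limma, SE 0.36). PEF7 was the lowest fibroblast line for both partners, and the piPSC lines all lay above PEF5. FANCA (ENSSSCG00000024687, chromosome 6 from 253207 to 300152, plus strand) had 1.7, 0.424 and 0.658 FPKM in PEFs and 8.58, 5.25 and 8.75 in piPSCs, where piPSC7 was the lowest of its group. Its difference was 2.17 on the log2 scale (adjusted p = 0.00236 in limma, SE 0.32). FANCA overlaps ZNF276 on the other strand, BRCA1, BRCA2, PALB2, MRE11, FANCD2, FANCI, MSH6 and CHEK2 also overlap a gene on the other strand, and these libraries do not mark strand. The same limit holds for genes not called, among them NBN, RAD52, RAD54L, FANCF, FANCL, FANCM, XRCC6, XPA, XPC and DDB2. On the same strand, XRCC5 overlaps TMEM169 and ERCC1 overlaps ERCC2.

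The other core subunits had smaller values. On log2(FPKM + 1), FANCC was higher by 0.85 (adjusted p = 0.0433 in limma, SE 0.28), under 2-fold because of the added 1, since the ratio of its mean FPKM values was 3.87. It was called with a pseudocount of 0.1 (1.93, adjusted p = 0.045), with voom (2.33, adjusted p = 0.0268) and without PEF5. Its adjusted p in limma was 0.058 with lines as a block, 0.0643 by median ratio and 0.0816 by equal sums. Without PEF7, PEF8, piPSC5 or piPSC7 it ran from 0.0913 to 0.12. On log2(FPKM + 1), FANCM, FANCL and FANCF had 0.84, 0.71 and 0.37, with adjusted p values of 0.0558, 0.0538 and 0.216. With voom FANCL was called (1.81, adjusted p = 0.0374). All 4 were at 2.26 FPKM or less in every library. FANCG (ENSSSCG00000034874, chromosome 1 from 235871076 to 235887939, minus strand) had 1 fragment in piPSC5 and 0 in the other 5 libraries, was not tested, and lies over PIGO and STOML2 on the same strand, so its count may not reflect its expression. FANCE, known by identifier only, had a log2 fold change of 0.45 (adjusted p = 0.131 in limma).

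Mismatch repair removes bases that the polymerase misplaced. MSH6 (ENSSSCG00000020931, chromosome 3 from 92786017 to 92814205, minus strand), which recognises single mismatches, had 5.62, 1.94 and 1.94 FPKM in PEFs and 11.3, 10.2 and 12.4 in piPSCs. PEF7 and PEF8 were nearly equal, PEF5 stood between them and the piPSC libraries, and the increase was 1.67 on the log2 scale (adjusted p = 0.00793 in limma, SE 0.35). PMS2, which cuts the new strand, was higher by 0.69 (adjusted p in limma = 0.0215), under 2-fold. Its adjusted p was 0.0706 by median ratio, 0.128 by equal sums and 0.0516 to 0.0794 without PEF7, PEF8, piPSC5 or piPSC7. MSH3, which recognises larger loops and competes with MSH6 for the same partner, had 0.39 (adjusted p in limma = 0.247) with overlapping groups. Within each library, the level of MSH6 over that of MSH3 was 3.96, 2.36 and 2.45 in PEFs and 4.79, 7.99 and 9.39 in piPSCs, so the ratios of the groups did not overlap. These ratios follow from the changes of the 2 genes and are no separate test.

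Of the 5 tested genes of end joining, PRKDC was called higher and LIG4 lower, shares that lie near those of all tested genes (20.2% and 16.7%). PRKDC (ENSSSCG00000006274, chromosome 4 from 79686651 to 79845655, plus strand), the DNA-dependent protein kinase that Ku recruits, had 1.66, 0.87 and 1.27 FPKM in PEFs and 6.69, 4.14 and 6.85 in piPSCs. The lowest piPSC library, piPSC7, was above every fibroblast library, and PRKDC rose by 1.59 on the log2 scale (adjusted p = 0.00328 in limma, SE 0.26). Its gene model overlaps MCM4 on the other strand.

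LIG4 (ENSSSCG00000009540, chromosome 11 from 75537039 to 75545033, minus strand), the ligase that seals the joined ends, had 12.6, 6.68 and 8.83 FPKM in PEFs and 4.35, 3.02 and 4.22 in piPSCs. PEF5 was the highest and piPSC7 the lowest library, and the groups did not overlap. LIG4 fell by 1.07 on the log2 scale (adjusted p = 0.0152 in limma, SE 0.26). The 2-fold line was missed without PEF5, at -0.85, and without piPSC7, at -0.93. The ratio of PRKDC to LIG4 within a library was 0.132, 0.130 and 0.144 in PEFs and 1.54, 1.37 and 1.62 in piPSCs, so it rose in every line. The ratio restates the rise of PRKDC and the fall of LIG4 and is no separate test.

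The Ku subunits, which grip the broken ends first, showed no called change. XRCC5 (Ku80) averaged 15.6 ± 2.63 FPKM (SD, n = 3) in the fibroblasts and 15.9 ± 2.1 after reprogramming, and its log2 fold change was 0.03 with a 95% interval from -0.41 to 0.47. XRCC6 (Ku70) had -0.17 with an interval from -0.76 to 0.42. The sign of XRCC5 turned under both rescalings, to -0.22 and -0.28. TP53BP1, which protects ends from resection and so opposes BRCA1, was higher by 0.67 (adjusted p in limma = 0.0362). Its adjusted p was 0.106 by median ratio and 0.193 by equal sums. Without 1 library it ran from 0.0307 to 0.113, and was under 0.05 only without PEF8. BRCA1 over TP53BP1 was 0.414, 0.0605 and 0.174 in PEFs and 0.523, 0.752 and 0.455 in piPSCs, with PEF5 close to piPSC8.

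**Figure D3:**
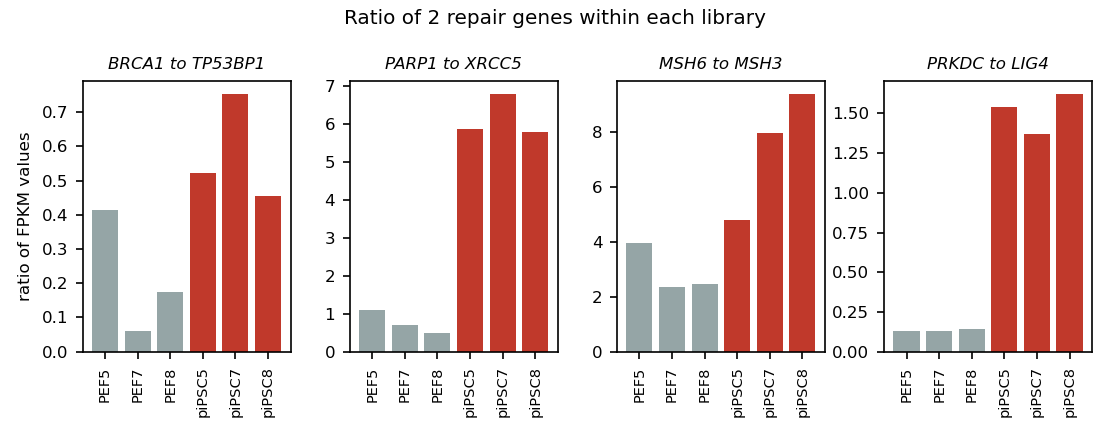
Ratio of the FPKM values of 2 repair genes within each of the 6 libraries, with PEF libraries in grey and piPSC libraries in red, 1 panel per pair and y axes from 0. PRKDC over LIG4 was 0.144 or less in the PEFs and 1.37 or more in the piPSCs, and PARP1 over XRCC5 was 1.10 or less in the PEFs and 5.77 or more in the piPSCs. The ratios restate the changes of the single genes and are no separate test.

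Checkpoint kinases halt the cycle when DNA is broken or replication stalls. ATM (ENSSSCG00000025606, chromosome 9 from 36620587 to 36759552, plus strand), which answers to double-strand breaks, had 3.16, 2.21 and 1.68 FPKM in PEFs and 8.2, 6.22 and 7.14 in piPSCs, and rose by 1.31 on the log2 scale (adjusted p = 0.00454 in limma, SE 0.23). CHEK2 (ENSSSCG00000034864, chromosome 14 from 45926613 to 45967871, minus strand), its effector kinase, had 1.32, 0.557 and 1.09 FPKM in PEFs and 4.64, 3.87 and 4.77 in piPSCs, and rose by 1.46 on the log2 scale (adjusted p = 0.003 in limma, SE 0.23). In both genes every piPSC library lay above every fibroblast library, as in 37.3% of all tested genes. ATR, which answers to stalled forks, was higher by 0.89 (adjusted p in limma = 0.0272), and reached 1.10 without PEF5. CHEK1, the effector of ATR, is known by identifier only and was higher by 2.06 on the log2 scale (adjusted p = 0.00975 in limma, SE 0.45).

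In base excision and single-strand break repair all 4 genes were called higher (against 20.2% of all tested genes), with a median log2 fold change of 1.96. PARP1 (ENSSSCG00000023660, chromosome 10 from 14203645 to 14240972, minus strand), which marks strand breaks with poly(ADP-ribose), had 16.1, 9.47 and 9.07 FPKM in PEFs and 88.9, 96.6 and 106 in piPSCs. No other gene of the list reached its level in any piPSC library. PARP1 rose by 3.00 on the log2 scale (adjusted p = 0.000332 in limma, SE 0.23), and its ratio to XRCC5 within a library was 1.10, 0.699 and 0.489 in PEFs and 5.86, 6.77 and 5.77 in piPSCs.

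XRCC1 (ENSSSCG00000003055, chromosome 6 from 50403693 to 50425691, minus strand), the scaffold that PARP1 activity brings to the break, had 2.72, 2.59 and 2.27 FPKM in PEFs and 12.8, 11.4 and 11.8 in piPSCs. Libraries of 1 group lay close together, and XRCC1 rose by 1.89 on the log2 scale (adjusted p = 0.000444 in limma, SE 0.17), with the smallest SE of the 39 genes. UNG (ENSSSCG00000009938, chromosome 14 from 41746499 to 41757846, minus strand), which removes uracil from DNA, had 21.1, 8.23 and 5.7 FPKM in PEFs and 55.5, 38.6 and 40.5 in piPSCs, with line 5 highest in both groups. The increase of UNG was 2.03 on the log2 scale (adjusted p = 0.00921 in limma, SE 0.44).

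OGG1 (ENSSSCG00000011549, chromosome 13 from 66034700 to 66044558, plus strand), which removes oxidised guanine, had 3.53, 1.34 and 2.88 FPKM in PEFs and 7.02, 5.73 and 6.0 in piPSCs. The 3 piPSC libraries were close to each other and above every fibroblast library, of which PEF7 was the lowest, and OGG1 rose by 1.07 on the log2 scale (adjusted p = 0.0204 in limma, SE 0.29). It fell short of 2-fold after rescaling to the median ratio (0.86), without PEF7 (0.79) and without piPSC5 (0.99), and of the adjusted p after rescaling to equal sums (0.0674) and with voom (0.0508). Its model overlaps BRPF1 and MTMR14 on the same strand and CAMK1 on the other.

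**Figure D4:**
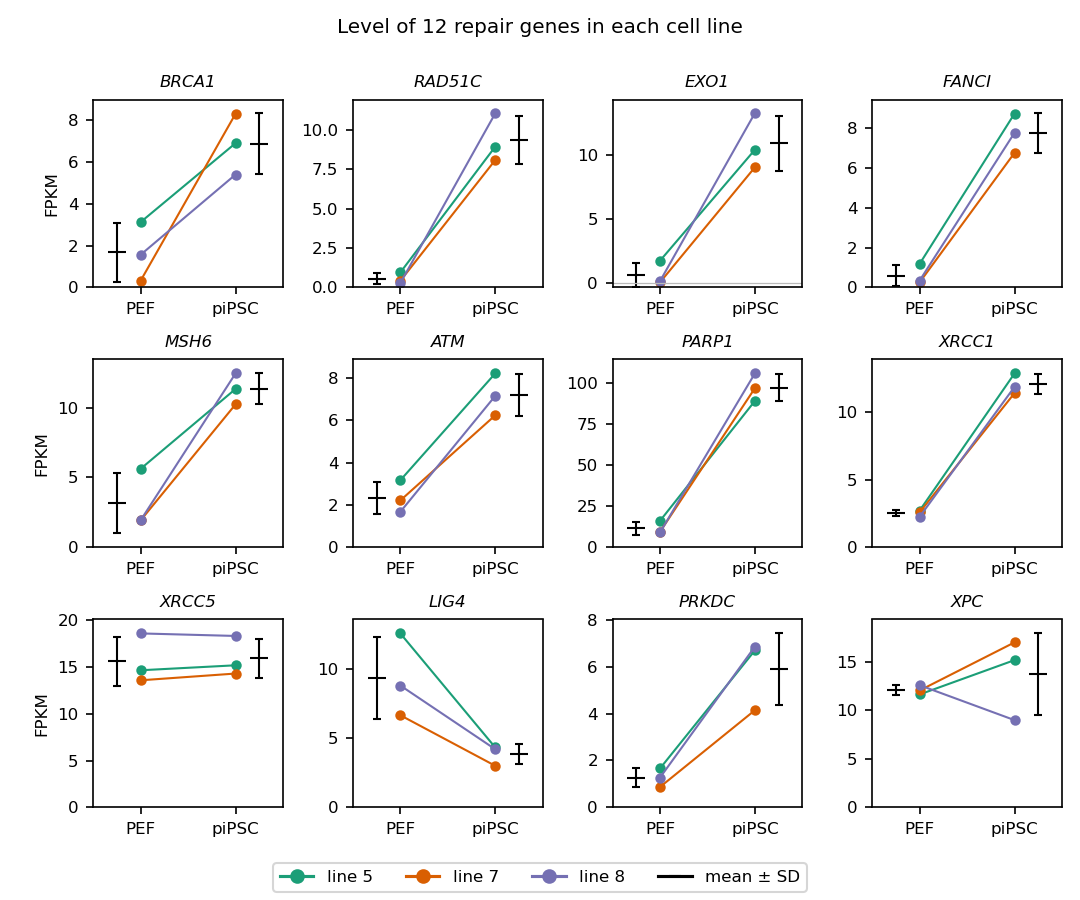
FPKM of 12 genes in each cell line, with a line joining each PEF library to the piPSC library made from it (green line 5, orange line 7, purple line 8) and black bars for the mean ± SD of the 3 libraries of a group. In EXO1 the lower SD bar of the PEFs passes below 0. XRCC5 lines are nearly flat, LIG4 falls in all 3 lines, XPC goes up in lines 5 and 7 and down in line 8, and the other 9 genes are higher in the piPSC library of every line.

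None of the 4 listed genes of nucleotide excision repair was called by limma, where 20.2% of all tested genes were called higher and 16.7% lower. With only 4 genes, a count of 0 does not set this group apart from all tested genes. Of the 4, 0 had an unadjusted p under 0.05 in limma in either direction, and 0 were called with voom. XPC, which finds distorting damage, averaged 12.1 ± 0.477 FPKM (SD, n = 3) in the fibroblasts and 13.7 ± 4.2 after reprogramming, and its log2 fold change was 0.13 with a 95% interval from -0.46 to 0.71. ERCC1, part of the nuclease that cuts beside the damage, had 0.28 (adjusted p in limma = 0.236), and DDB2, which finds ultraviolet lesions in chromatin, had -0.05. XPA, which checks the damage before it is cut, had -0.58 (adjusted p in limma = 0.121) with every piPSC library below every PEF library, although piPSC5, at 5.36 FPKM, was next to PEF5, at 5.39. Under both rescalings XPA passed the adjusted p but not 2-fold, with -0.805 by median ratio (adjusted p = 0.0398) and -0.94 by equal sums (adjusted p = 0.0428). The summed level of the 4 genes was 24.7 ± 2.29 FPKM (SD, n = 3) in the fibroblasts and 24.5 ± 5.68 in piPSCs, while that of the 4 genes of base excision repair was 28.3 ± 13.1 and 160 ± 6.84.

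The fibroblast lines were not alike. PEF5 was the highest PEF library in 29 of the 39 genes (74.4%, against 37.9% of all tested genes), and at least 2-fold above both other PEF libraries in 10 (25.6%, against 5.13%). Of the cycling genes, 11 of 14 were at least 2-fold higher in PEF5. BARD1 had 17.4 times and EXO1 14.6 times the mean of PEF7 and PEF8, BLM 6.7 times and FANCC 4.92 times. XRCC1, TP53BP1, RAD51B and ERCC1 stood between 1.00 and 1.12 times that mean, and XPA at 0.67. These are single libraries, so the difference between fibroblast lines has no replicate check.

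**Figure D5:**
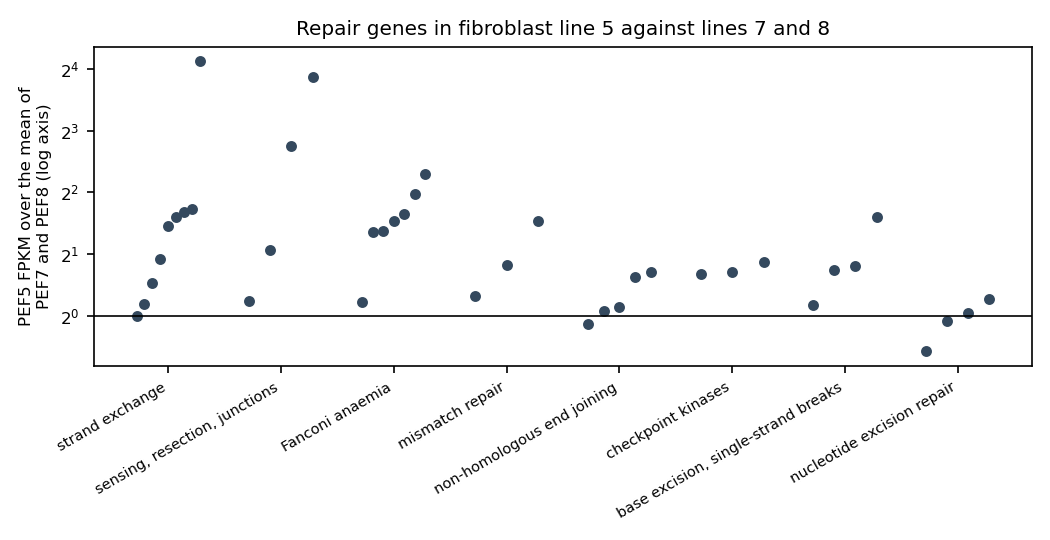
FPKM in PEF5 over the mean of PEF7 and PEF8 (y axis, log scale to base 2) for each of the 39 tested genes, placed by role, with a horizontal line where they are equal. BARD1 and EXO1 are the highest points, at 17.4 and 14.6, and checkpoint kinases, end joining and nucleotide excision repair stay below 2.

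The same spread showed when each piPSC line was set against its own fibroblast line. In line 5, 13 of the 39 genes were at least 2-fold higher and 1 lower in the ratio of FPKM + 1, with a median log2 ratio of 0.67. The numbers were 22 and 0 with a median of 1.17 in line 7, and 20 and 1 with a median of 1.02 in line 8. Of all 12428 tested genes, 2727 were higher and 2310 lower in line 5, 3094 and 2138 in line 7, and 2961 and 2952 in line 8. Medians of all tested genes were 0.21, 0.24 and 0.08 in the same lines. The piPSC libraries differed less, with medians over the 40 repair genes of 2.91, 2.58 and 2.79 as log2(FPKM + 1), against 1.93, 1.22 and 1.39 in PEF5, PEF7 and PEF8. Without PEF5, 23 genes were called higher in place of 19, and LIG4 was no longer called. Of all tested genes, 20.1% were called higher and 15.0% lower in that fit.

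Repair genes outside the list were read by the same fit. Of 81 tested, 35 were called higher (43.2%, against 20.2% of all tested genes) and 0 lower (against 16.7%) by limma, and voom called 0 lower. At an unadjusted p under 0.05, 2 were lower, and these were SWI5, which also passed the adjusted p (-0.86, adjusted p = 0.00512) but not 2-fold, and POLK (-0.64, adjusted p = 0.0579). The number called higher was 22 under each rescaling, 22 without PEF8 and 22 without piPSC5, and 1 and 3 genes were called lower under the rescalings. The largest increases were those of MND1 (3.10) and PSMC3IP (2.08), partners that stimulate strand exchange, RAD51AP1 (2.04), which also acts in strand exchange, HUS1 (2.66), part of the clamp that activates ATR, and POLQ (2.60), the polymerase of an end joining route that uses short repeats. By role, 7 of 12 strand exchange genes, 6 of 10 of sensing and resection, 3 of 5 of the Fanconi pathway, 4 of 7 of the checkpoint and 6 of 15 of base excision repair were called higher. The numbers were 1 of 4 in mismatch repair, 1 of 7 in end joining and 2 of 9 in direct reversal and translesion synthesis, near or below the share of all tested genes. In nucleotide excision repair 5 of 12 of these other genes were called higher, with a median log2 fold change of 0.72, unlike the 4 genes of the list, whose median was 0.04, a difference that was not tested.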

How the data were processed

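Expression was read in 3 PEF and 3 piPSC lines. FPKM values, deposited by the authors, came from 150 bp paired reads. Their processing notes name HISAT2 2.1.0, HTSeq 0.6.0, Bowtie2 2.2.3 and Sscrofa11.1. The annotation release and the treatment of fragments shared by genes are not given in the sources used here. Of 13150 symbols shared with RefSeq, 99.8% lay at overlapping positions. Every value was a whole number of fragments (within 0.001, for 18007 of 18007 genes), given totals recovered from short genes. Of the genes, 3375 carry an identifier only, and 902 of these were named from a gene table.

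Groups were compared with limma 3.58.1 in R 4.3.3 (lmFit, eBayes with a trend, two-sided, Benjamini-Hochberg over the 12428 genes whose mean FPKM reached 0.5) on log2(FPKM + 1), which understates changes of low genes. Python 3.11.15 with pandas 2.3.3 made the counts. The steps were tested on simulated data. The members and lists were chosen with earlier results of these data known. Genes are named by role, with values per library for the largest called changes of a role (at most 4), for genes called lower and for the untested gene. Values per library are also given for genes of at least 2-fold in the main fit whose call changed without 1 library. The libraries pair by number, since a piPSC line derives from its own PEF line. Deviations from group means had correlations of 0.0921, 0.0946 and 0.08 within lines and of -0.121 to 0.0553 between lines. A fit with lines as a replicate block is among the alternatives in the closing section. The smallest p of an exact permutation test of 3 against 3 is 0.1, so none was run. Each line is 1 library, so p-values measure the spread between lines. A protein table was not used here, and no protein sequence is shown.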

Additional observations from a re-analysis of the deposited data

Results flagged for a closer look

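In 4 genes, the piPSC to PEF ratios of the cell lines pointed in opposite directions. The log2 ratios of FPKM + 1 of the lines spanned 0.09 in XRCC5, 0.429 in XRCC6, 0.908 in XPC and 0.447 in DDB2, from the lowest to the highest line. XPC was lower in piPSC8 than in PEF8 and higher in the piPSCs of lines 5 and 7, while XRCC6 was higher in piPSC7 only. DDB2 was lower in piPSC5 only, and XRCC5 was lower in piPSC8 by 0.02 on the log2 scale. With 1 library per line, the difference between lines was not tested.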

How the results depend on the processing

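The fit was repeated with a replicate block for the cell line, a pseudocount of 0.1, no filter, a mean FPKM of at least 1, both rescalings, voom on recovered fragments, and without each library in turn. With the paired replicate block, 19 repair genes were called higher and 1 lower, 25 had an adjusted p under 0.05, and no call of a listed gene changed. Of all tested genes, 19.8% were called higher and 16.3% lower with the block. Without 1 library, 15 to 23 repair genes were called higher, 0 to 1 lower, and 16 to 26 had an adjusted p under 0.05. In these fits 17.8% to 21.1% of all tested genes were called higher and 14.8% to 16.6% lower. The median log2 fold change of the repair genes was 1.56 with a pseudocount of 0.1 and 1.64 with voom, since a smaller added value shrinks low genes less. Of the other repair genes, 22 to 35 were called higher without 1 library. The rescalings gave 22 higher each, and 1 lower (median ratio) and 3 lower (equal sums). All tested genes were then called higher in 15.1% and 16.0% and lower in 20.2% and 22.7%, by median ratio first. Signs turned in 4 genes that were not called. XRCC5 had -0.22 and -0.28 and XPC -0.13 and -0.18 under the rescalings, by median ratio first. Without 1 library, XRCC5 ran from -0.066 to 0.157, XRCC6 from -0.378 to 0.004, XPC from -0.041 to 0.383 and DDB2 from -0.190 to 0.036. Depth limits the lowest genes: among the 39 tested genes the smallest count in PEF7 was 5 fragments, for EXO1, and in PEF8 9, for BARD1.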
